A study of Mus musculus with 16 samples.

Results

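Receptors of the TGF-beta superfamily were followed in TM4 cells, a mouse cell line of Sertoli cell origin, after transfection of a killifish BMP-type ligand. The 10 receptor genes were taken by symbol from the count table of 56748 genes. They comprise 4 type I receptors (*Bmpr1a*, *Acvr1*, *Acvr1b*, *Tgfbr1*), 4 type II receptors (*Bmpr2*, *Acvr2a*, *Acvr2b*, *Tgfbr2*) and 2 co-receptors (*Tgfbr3*, *Eng*). All 10 had reads in each of the 16 samples, and all 10 passed the filter on low counts. All cells received 2.5 µg of plasmid per well by lipofection and were lysed 24 h later. Of the samples, 6 received the empty vector pcDNA3.1-HA (EV), 5 received pcDgdf6Y, which carries the male sex-determining gene *gdf6Y* of the killifish *Nothobranchius furzeri*, and 5 received pcDgdf6Ydel9. The latter (del9) carries the same gene with a small in-frame deletion in the prodomain. The replicates are numbered in the labels with no statement of separate cultures, so the spread between these samples may be technical. The p-values rest on variances that edgeR estimates from all genes together, so they do not measure each receptor's own spread alone. The plasmid's own transcript is not part of the mouse count table, and mouse *Gdf6* had 0 reads in all samples.

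Ligands of this superfamily are dimers that bring type I and type II receptor kinases together. The type II receptor phosphorylates the type I receptor, which then phosphorylates Smad proteins that enter the nucleus. *Bmpr1a* and *Acvr1* pass BMP signals to Smad1, Smad5 and Smad9, whereas *Tgfbr1* and *Acvr1b* pass TGF-beta and activin signals to Smad2 and Smad3. *Bmpr2* is the type II receptor of BMPs, *Tgfbr2* that of TGF-beta, and *Acvr2a* and *Acvr2b* bind activins and several BMPs. *Tgfbr3* (betaglycan) presents TGF-beta to *Tgfbr2* and is a co-receptor of inhibin, and *Eng* (endoglin) is a co-receptor best known from endothelial cells.

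Between 21486850 and 26444903 reads per sample were counted on genes. Of the 11 Sertoli cell markers listed, 5 (*Gata4*, *Kitl*, *Dhh*, *Sox9* and *Inha*) had a mean of at least 10 reads in EV samples. *Wt1* and *Dmrt1* had 0 reads in all 16 samples, so the labelled cell type is supported by only part of its markers. None of the 7 endothelial markers reached a mean of 10 reads with EV, and their summed level in EV samples was 0.181 to 0.494 TPM.

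With EV, *Tgfbr2* was the most abundant receptor transcript and *Acvr2b* the least abundant. Levels are given here as counts per exonic length scaled to TPM (transcript levels per length with a common total), the only scale on which different genes can be compared. *Tgfbr2* reached 145 ± 2.25 (SD, n = 6), *Tgfbr3* 120 ± 8.53 (SD, n = 6) and *Bmpr1a* 81.6 ± 1.08 (SD, n = 6) TPM. These were at the 90.0, 87.3 and 81.1 percentile of the 12549 genes averaging 10 or more reads. *Bmpr2* followed with 35.3 ± 1.48 (SD, n = 6), *Acvr1b* with 22.2 ± 1.17 (SD, n = 6), *Tgfbr1* with 19.1 ± 0.639 (SD, n = 6) and *Acvr1* with 18.5 ± 0.897 (SD, n = 6) TPM. *Acvr2a* stood at 9.32 ± 0.305 (SD, n = 6), *Eng* at 2.25 ± 0.216 (SD, n = 6) and *Acvr2b* at 1.69 ± 0.138 (SD, n = 6). Neighbours in this order had ranges that did not overlap among the 6 EV samples, except for *Tgfbr1* (18.154 to 20.045) and *Acvr1* (17.5 to 19.9). The order rests on the lengths used: with the longest annotated transcript, *Acvr1* (20.6) came before *Acvr1b* (15.9) and *Tgfbr1* (15.02), and the other positions were kept. The order of the mean levels was the same with *gdf6Y* and with del9.

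**Figure D1:**
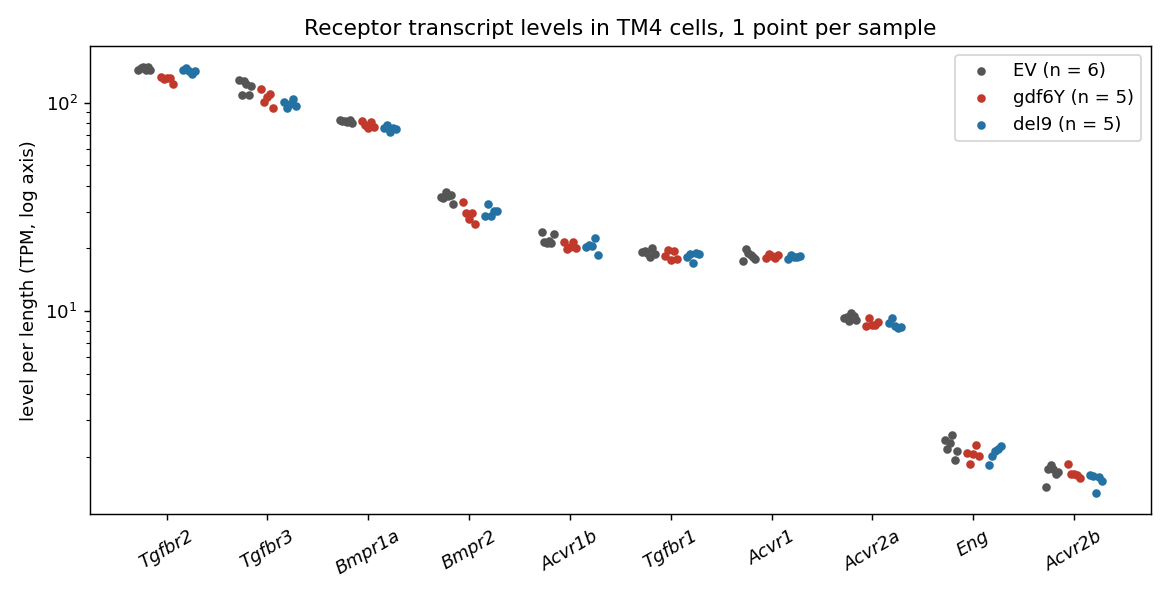
Transcript level per exonic length (TPM, log axis) of the 10 receptors, with 1 point per sample for EV (n = 6), *gdf6Y* (n = 5) and del9 (n = 5). *Tgfbr2*, *Tgfbr3* and *Bmpr1a* lie above the other 7 receptors in every sample, and *Eng* and *Acvr2b* lie lowest.

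Within the receptor classes, 1 transcript prevailed in each. *Bmpr1a* made up 57.7% ± 0.432 (SD, n = 6) of the type I receptor transcripts with EV, and *Acvr1b*, *Tgfbr1* and *Acvr1* made up 15.7%, 13.5% and 13.1%. *Tgfbr2* made up 75.8% ± 0.548 (SD, n = 6) of the type II receptor transcripts, *Bmpr2* 18.4% ± 0.552 (SD, n = 6), *Acvr2a* 4.87% and *Acvr2b* 0.880%. The level of *Tgfbr2* was 7.60 ± 0.206 (SD, n = 6) times that of its type I partner *Tgfbr1*, whereas the level of *Bmpr2* was 0.433 ± 0.0149 (SD, n = 6) times that of its type I partner *Bmpr1a*. These shares are sums of transcripts and say nothing of receptor protein at the cell surface.

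The remaining type I and II receptors were at or near the limit of counting. *Bmpr1b*, a BMP type I receptor, and *Acvr1c*, the type I receptor of nodal and activin, had at most 1 read in any sample. *Amhr2*, the type II receptor of anti-Müllerian hormone, had 0 to 3 reads per sample. *Acvrl1*, the type I receptor used with endoglin in endothelium, had 8 to 28 reads per sample and a level of 0.403 ± 0.107 (SD, n = 6) TPM with EV. None of these 4 was called in any comparison, and 3 of them were too sparse for a difference to be detectable.

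The comparison of *gdf6Y* with EV asks which transcripts change when the ligand is expressed. Of the 10 receptors, 3 were lower and none was higher by edgeR's quasi-likelihood test at an adjusted p below 0.05. The 3 were the type II receptors *Bmpr2* and *Tgfbr2* and the co-receptor *Tgfbr3*. Of all 26316 genes tested, 5.08% were called and 3.38% were called lower, and of the 10062 genes averaging 100 or more reads, 12.9% were called. The median log2 fold change of the 10 receptors was -0.064, against -0.0021 for all genes tested (0.011 against 0.0098 in *gdf6Y* against del9, and -0.074 against -0.0054 in del9 against EV). The comparison of *gdf6Y* with del9 asks which of the changes need the intact ligand and is itself the test of whether the changes with the 2 plasmids differ. There, 1 of 10 receptors was called, *Tgfbr2*, again lower with *gdf6Y*, against 1.01% of all 25878 genes tested (0.41% called lower) and 1.96% of the genes averaging 100 or more reads. With del9 against EV, 2 of 10 receptors were called, *Tgfbr3* and *Bmpr2*, both lower, against 9.25% of the 26226 genes tested (4.43% called lower). Of the 10085 genes averaging 100 or more reads in that comparison 21.7% were called, so 2 of 10 is near the share for genes of such abundance. The 3 comparisons share samples, so their values are given side by side and are not independent of each other.

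**Figure D2:**
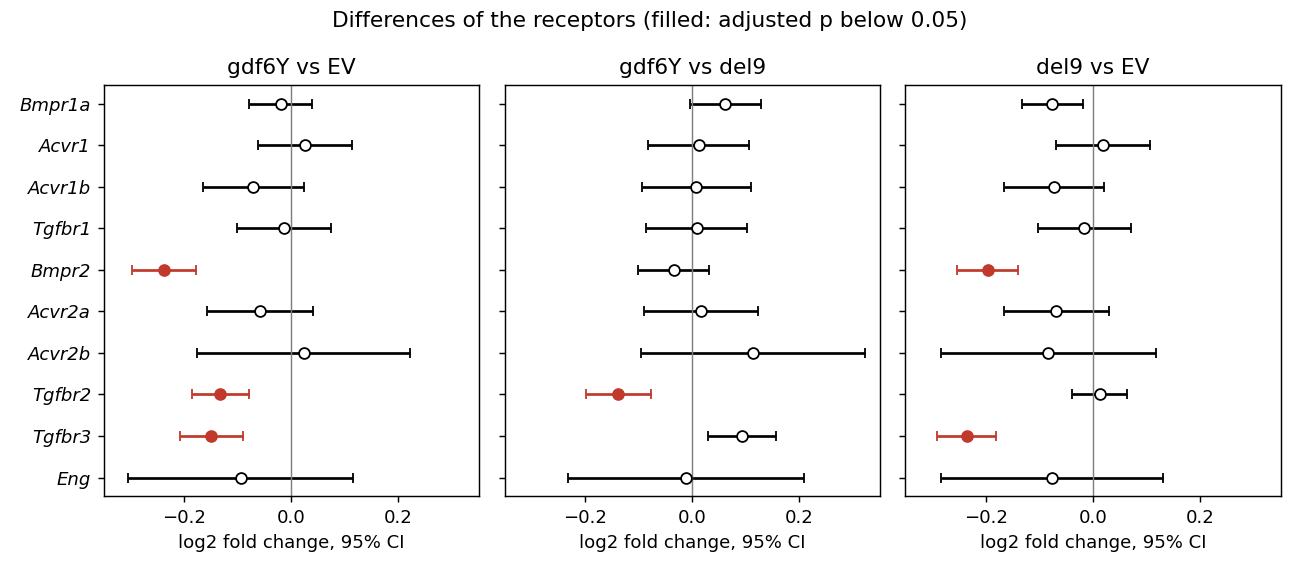
Log2 fold change with its 95% confidence interval (edgeR quasi-likelihood fit) of the 10 receptors in *gdf6Y* against EV, *gdf6Y* against del9 and del9 against EV. Filled red points have an adjusted p below 0.05: *Bmpr2*, *Tgfbr2* and *Tgfbr3* in the first panel, *Tgfbr2* in the second, and *Bmpr2* and *Tgfbr3* in the third, all to the left of 0.

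*Tgfbr2*, the type II receptor of TGF-beta (chr9:115913361-116004800, minus strand, GRCm39), was lower with *gdf6Y* than with either control and did not pass the test between the controls. Normalized counts, which are reads scaled to a common library size by TMM, had a lowest value of 6268, a median of 6326 and a highest value of 6482 in the EV samples. The *gdf6Y* samples 1 to 5 had 5840, 5696, 5937, 5910 and 5548, and the del9 samples 1 to 5 had 6372, 6557, 6412, 6216 and 6397. Every *gdf6Y* sample was thus below every EV and every del9 sample, and the EV and del9 samples overlapped. The EV mean was 6349 ± 81.2 (SD, n = 6), the *gdf6Y* mean 5786 ± 163 (SD, n = 5) and the del9 mean 6391 ± 122 (SD, n = 5). The log2 fold change was -0.13 (SE 0.027, edgeR adjusted p = 9.98e-05) against EV and -0.14 (SE 0.031, edgeR adjusted p = 0.00159) against del9. As a percentage, the 95% confidence interval of the change was -12.1% to -5.31% against EV and -12.9% to -5.23% against del9. The SE taken from the spread of the samples themselves was 0.020 and 0.022, close to that of the fit. For del9 against EV the log2 fold change was 0.012 (95% confidence interval -0.039 to 0.064, edgeR adjusted p = 0.829). The call against EV and the call against del9 each held in all 21 fits made of that comparison, with adjusted p-values up to 0.0026 and 0.0168.

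The sequence before the start of *Tgfbr2* is shown with that of *Bmpr2*, since these were the type II receptors called in the comparisons. Both are the 250 bases before the annotated start in RefSeq (GRCm38.p6), *Tgfbr2* at chr9:116175364-116175613 on the minus strand and *Bmpr2* at chr1:59764029-59764278 on the plus strand. Such a stretch was found for 9 of the 10 receptors and not for *Tgfbr3*. Capitals mark 2 motifs known from Smad binding, searched on both strands: GGCGCC, which is its own reverse complement and is found at BMP-responsive genes, and CAGAC, part of the Smad3 and Smad4 element.
Tgfbr2: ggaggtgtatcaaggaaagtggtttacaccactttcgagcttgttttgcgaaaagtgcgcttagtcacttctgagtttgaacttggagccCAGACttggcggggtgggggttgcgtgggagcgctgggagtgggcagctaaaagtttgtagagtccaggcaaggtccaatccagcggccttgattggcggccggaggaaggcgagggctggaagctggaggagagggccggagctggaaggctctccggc
Bmpr2: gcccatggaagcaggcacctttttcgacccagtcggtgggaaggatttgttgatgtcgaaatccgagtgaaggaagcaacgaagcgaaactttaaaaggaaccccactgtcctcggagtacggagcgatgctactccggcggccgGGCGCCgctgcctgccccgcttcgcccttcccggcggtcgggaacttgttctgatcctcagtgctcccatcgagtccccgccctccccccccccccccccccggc
The *Tgfbr2* stretch holds 1 CAGAC and no GGCGCC, and the *Bmpr2* stretch holds 1 GGCGCC and no CAGAC. Of 32544 RefSeq promoter windows of the same length, 42.2% hold CAGAC and 9.6% hold GGCGCC. Among receptors that were not called in any comparison, GGCGCC also lies before *Bmpr1a* and 1 start of *Tgfbr1*, and CAGAC before *Acvr2a*, *Acvr2b*, *Eng* and another start of *Tgfbr1*. A match describes the letters alone, and no binding was measured in these cells.

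*Bmpr2*, the type II receptor of BMPs (chr1:59802544-59918173, plus strand, GRCm39), was lower with both plasmids than with EV. Its normalized counts in EV samples had a lowest value of 2945, a median of 3207 and a highest value of 3308. The *gdf6Y* samples 1 to 5 had 3042, 2665, 2567, 2734 and 2432, and the del9 samples 1 to 5 had 2586, 2976, 2659, 2791 and 2803. In each plasmid group 4 of 5 samples were below all EV samples, and the exceptions were *gdf6Y* replicate 1 and del9 replicate 2. The log2 fold change against EV was -0.24 with *gdf6Y* (SE 0.031, edgeR adjusted p = 9.44e-12) and -0.20 with del9 (SE 0.029, edgeR adjusted p = 3.12e-09), a change of -15.1% and -12.7%. The spread of the samples themselves gave larger SEs of 0.059 and 0.043. Both calls held in all 21 fits of their comparison, with adjusted p-values up to 0.0036 and 0.00113. Between *gdf6Y* and del9 the log2 fold change was -0.035 (95% confidence interval -0.10 to 0.032, edgeR adjusted p = 0.685), so no difference between the plasmids was detectable.

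**Figure D3:**
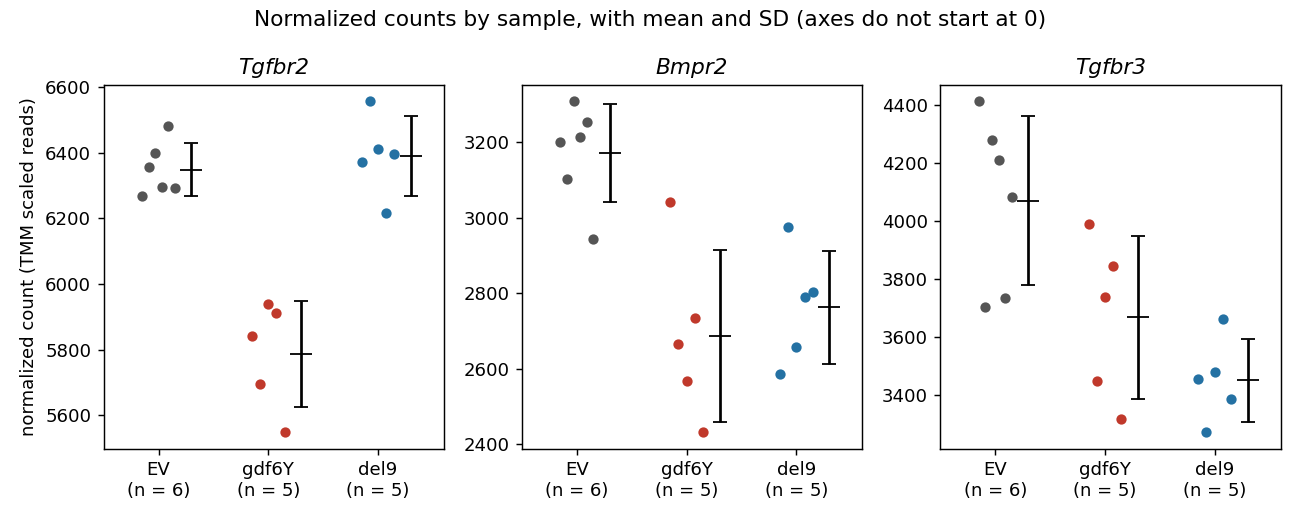
Normalized counts of *Tgfbr2*, *Bmpr2* and *Tgfbr3* in each sample (points) with the mean and SD of the group (bars), for EV (n = 6), *gdf6Y* (n = 5) and del9 (n = 5); the vertical axes do not start at 0. For *Tgfbr2* the 5 *gdf6Y* samples lie below all others, for *Bmpr2* both plasmid groups lie low with 1 high sample each, and for *Tgfbr3* the 5 del9 samples lie below all EV samples.

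*Bmpr2* has an exonic length of 18066 bases, at the 97.6 percentile of the same 12549 genes, and long genes as a class moved in the same direction. Among genes averaging 100 or more reads, sorted into deciles of exonic length, the median log2 fold change of *gdf6Y* against EV went from 0.059 in the shortest decile to -0.059 in the longest decile, to which *Bmpr2* belongs. In that decile 30.6% of genes were called lower, and the lower quartile of the log2 fold changes was -0.12. With del9 against EV the medians went from 0.067 to -0.045, and 26.1% of the longest decile were called lower, whereas between *gdf6Y* and del9 the medians stayed between -0.016 and -0.0045. *Bmpr2* at -0.24 and -0.20 was thus below the lower quartile of its own decile in both comparisons with EV. With the trend on length taken into the fit, its log2 fold change was -0.16 with *gdf6Y* (edgeR adjusted p = 2.6e-06) and -0.14 with del9 (edgeR adjusted p = 3.42e-05). *Tgfbr2* (decile 7, 8792 bases) and *Tgfbr3* (decile 6, 6845 bases) are in deciles whose medians were -0.0065 and -0.0019 in *gdf6Y* against EV.

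**Figure D4:**
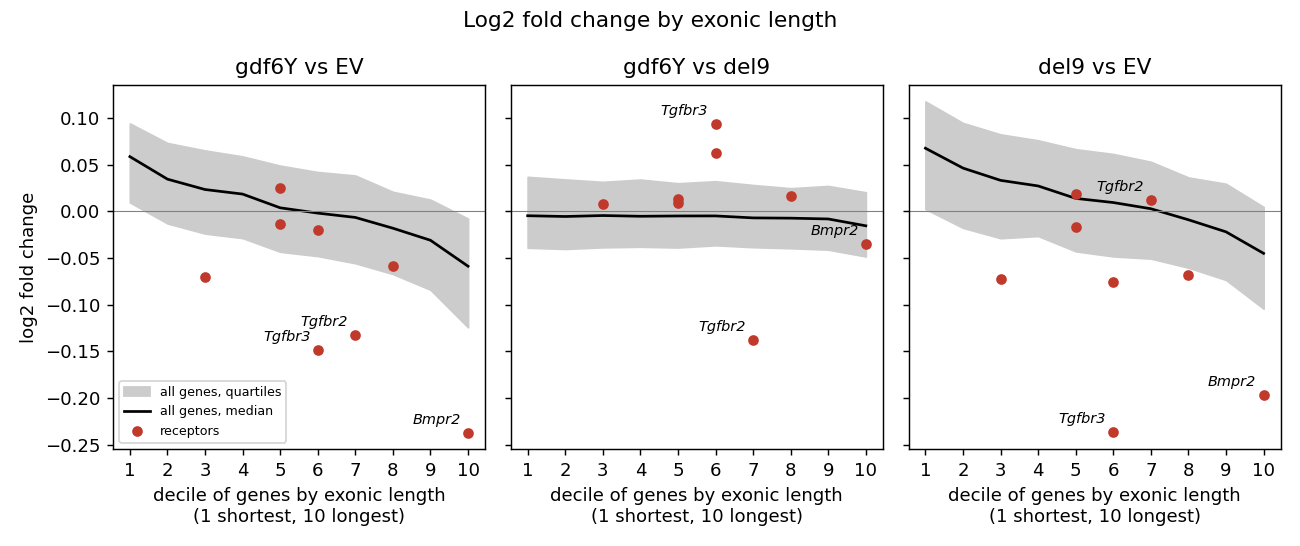
Log2 fold change by decile of exonic length (1 shortest, 10 longest) for genes averaging 100 or more reads, with the median (line) and quartiles (grey) of all genes and the 8 receptors abundant enough (red points), in the 3 comparisons. The line falls from 0.059 to -0.059 in *gdf6Y* against EV and from 0.067 to -0.045 in del9 against EV, with *Bmpr2* in decile 10 below the grey band in both, and is flat between *gdf6Y* and del9.

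The spread of *Bmpr2* between replicates also went with that of the longest genes, most closely among the *gdf6Y* samples and least among the del9 samples. In *gdf6Y* replicate 1 *Bmpr2* was 0.23 above the other samples of its group on the log2 scale, and the median of the 1007 genes of the longest decile was 0.054 above. In *gdf6Y* replicate 5 *Bmpr2* deviated by -0.18 and the longest genes by -0.072. In del9 replicate 2 the deviations were 0.14 and 0.044, and in EV replicate 6 they were -0.13 and -0.031. The lowest *Bmpr2* of del9 was in replicate 1 at -0.12, where the longest genes deviated by only -0.0082. In some libraries the signs differed, among them del9 replicate 4 (0.020 and -0.0090), del9 replicate 5 (0.028 and -0.016) and EV replicate 4 (0.024 and -0.0084). The library with the highest *Bmpr2* was the one with the highest longest genes in each of the 3 groups. The part of the length trend in the *Bmpr2* result was not tested beyond the corrected fit.

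**Figure D5:**
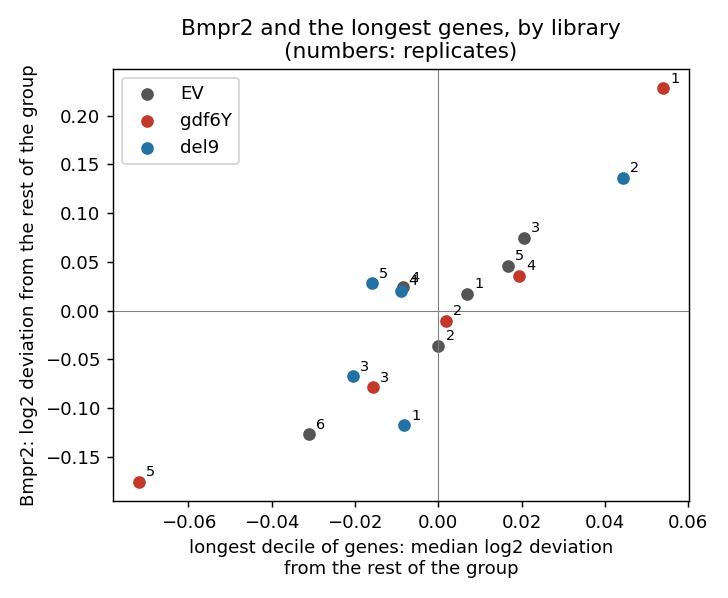
Deviation of *Bmpr2* from the rest of its group (vertical, log2) against the median deviation of the 1007 genes of the longest decile (horizontal, log2), with 1 point per library and the replicate number beside it. *Gdf6Y* replicate 1 lies highest at 0.23 and *gdf6Y* replicate 5 lowest at -0.18; the points of a group depend on each other, since each is set against the others.

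*Tgfbr3*, the co-receptor betaglycan (chr5:107249402-107437623, minus strand, GRCm39), was lower with del9 and, less firmly, with *gdf6Y*. Its normalized counts in EV samples had a lowest value of 3703, a median of 4144 and a highest value of 4411. The *gdf6Y* samples 1 to 5 had 3989, 3445, 3737, 3844 and 3314, and the del9 samples 1 to 5 had 3453, 3270, 3478, 3662 and 3386. All 5 del9 samples were below all EV samples, whereas only 2 of 5 *gdf6Y* samples were. The log2 fold change against EV was -0.24 with del9 (SE 0.028, edgeR adjusted p = 2.72e-14), a change of -15.1%. The spread of the samples themselves gave a larger SE of 0.050. This call held in all 21 fits, with adjusted p-values up to 0.00124. With *gdf6Y* it was -0.15 (SE 0.030, edgeR adjusted p = 5.09e-05), a change of -9.81%. This call did not hold with either stricter filter on low counts (edgeR adjusted p = 0.0592 with filterByExpr and 0.06 with at least 10 counts in every sample; range over the 21 fits 4.01e-08 to 0.06), and the spread of the samples themselves gave an SE of 0.066. *Tgfbr3* was higher with *gdf6Y* than with del9 by 0.093 on the log2 scale (95% confidence interval 0.029 to 0.16), which did not pass the test (edgeR adjusted p = 0.2). That difference passed in 3 of 21 fits (adjusted p over the 21 fits, DESeq2 among them, 0.00539 to 0.709). These were the fits with a replicate block, with block and length correction, and without *gdf6Y* replicate 5. In the last of these it was 0.12 (edgeR adjusted p = 0.0437).

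None of the 4 type I receptors was called in any comparison. *Bmpr1a*, the most abundant of them, came closest, with del9 against EV. Its normalized counts were 3075 to 3215 (median 3136) in EV samples, 3178, 3052, 3007, 3225 and 3028 in the *gdf6Y* samples, and 2953, 3062, 2878, 3009 and 2983 in the del9 samples. All 5 del9 samples were below all EV samples, and the *gdf6Y* samples overlapped both groups. The log2 fold change of del9 against EV was -0.076 (95% confidence interval -0.13 to -0.019, edgeR adjusted p = 0.0786). It passed the threshold in 6 of 21 fits, among them DESeq2 (adjusted p = 0.0106) and both stricter filters (edgeR adjusted p = 0.017 and 0.0171), and without del9 replicate 2 (edgeR adjusted p = 0.0423).

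The other type I receptors had small fitted changes, none of them called. *Acvr1*, a BMP type I receptor, had group means of 614 with EV, 624 with *gdf6Y* and 621 with del9 in normalized counts. *Tgfbr1*, the TGF-beta type I receptor, had means of 630, 624 and 621 in the same order. The 95% confidence interval of *gdf6Y* against EV ran from -4.23% to 8.17% for *Acvr1* and from -6.79% to 5.23% for *Tgfbr1*. *Acvr1b*, the activin type I receptor, had means of 524, 498 and 497, and its interval ran from -10.8% to 1.70% with *gdf6Y* and from -10.9% to 1.49% with del9. These intervals include falls as large as the called ones of *Tgfbr2* (-8.75%) and *Tgfbr3* (-9.81%) with *gdf6Y* against EV.

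The activin type II receptors and endoglin were not called either. *Acvr2a* had means of 467 with EV, 449 with *gdf6Y* and 445 with del9, and the interval of *gdf6Y* against EV ran from -10.3% to 2.82%. Of the stretches of 50 bases in its annotated transcripts, 29.6% also occur, on either strand, in transcripts of other genes, against 0.27% to 11.2% for the other 9 receptors. Its count is thus the one most open to an effect of shared stretches. No such stretch was shared between any 2 of the 10 receptors. *Acvr2b*, with means of 93.8, 95.1 and 88.2, and *Eng*, with means of 87.2, 81.6 and 82.7, had few reads and therefore wide intervals. In *gdf6Y* against EV these ran from -11.4% to 16.7% for *Acvr2b* and from -19.0% to 8.39% for *Eng*, so changes within these ranges are not excluded.

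The ratios between type II receptors and their type I partners differed slightly between the group means. The *Tgfbr2* to *Tgfbr1* ratio per length, 7.60 ± 0.206 (SD, n = 6) in EV samples, averaged 7.002 ± 0.368 (SD, n = 5) in *gdf6Y* samples and 7.76 ± 0.412 (SD, n = 5) in del9 samples, and the ranges of *gdf6Y* (6.55 to 7.49) and EV (7.38 to 7.90) overlapped. The *Bmpr2* to *Bmpr1a* ratio, 0.433 ± 0.0149 (SD, n = 6) in EV samples, averaged 0.372 ± 0.0243 (SD, n = 5) in *gdf6Y* samples and 0.398 ± 0.0150 (SD, n = 5) in del9 samples. Its highest *gdf6Y* value of 0.4110 was just below the lowest EV value of 0.4113, while del9 (up to 0.417) overlapped EV. These ratios are descriptions with no test. *Bmpr2* is in the longest decile of genes, whose median was lower with both plasmids than with EV, and the ratios are not corrected for this trend.

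The genes whose log2 counts followed each called receptor most closely over the 16 samples, among the 10074 genes averaging 100 or more reads, were given by Pearson's r. For *Bmpr2* they were *Tnks* (r = 0.97), *Nfat5* (0.96) and *Taok1* (0.96), with exonic lengths of 14938, 18520 and 13036 bases. For *Tgfbr3* they were *Golga2* (0.95), *Jade1* (0.94) and *Pdgfra* (0.93), with 6674, 8710 and 12310 exonic bases. For *Tgfbr2* they were *Clip1* (0.95), *Dusp7* (0.92) and *Cgnl1* (0.91), with 18043, 4097 and 7983 exonic bases. After the group means were removed, r was 0.88 to 0.90 for the 3 genes of *Bmpr2* and 0.90 to 0.93 for those of *Tgfbr3*. For *Tgfbr2* it was 0.87 for *Clip1*, 0.33 for *Dusp7* and 0.65 for *Cgnl1*. The samples share plasmids and library properties, so these values are a description.

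Downstream of the receptors, Smads and BMP target genes included genes that were higher with *gdf6Y* against both controls. Of 8 Smads, 3 were higher with *gdf6Y* than with EV and than with del9, and none was lower, where 1.7% and 0.599% of all genes tested were called higher. These were the inhibitory *Smad6* (log2 fold change 0.46 against EV and 0.51 against del9) and *Smad7* (0.42 and 0.35), which block receptor signalling, and *Smad9* (0.65 and 0.77), a receptor-regulated Smad of the BMP branch. Of 8 BMP target genes, 5 were higher against EV and 4 against del9, namely *Id1* (0.90 and 0.65), *Id2* (0.84 and 0.70), *Id3* (0.72 and 0.69) and *Atoh8* (1.58 and 1.45) in both. With del9 against EV, none of the Smads was called, and 2 of the 8 target genes, *Id1* and *Id2*, were higher, where 4.82% of all genes tested were called higher. The largest receptor change, -0.24, was smaller in size than the 0.35 to 1.58 of the Smads and target genes called in both *gdf6Y* comparisons. It was close in size to that of *Msx1*, the target gene called against EV only, at 0.25.

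Genes that act on or beside the receptors were counted in the same way. Among 26 intracellular receptor partners, 2 were higher and 1 lower with *gdf6Y* against EV, where 12.9% of genes averaging 100 or more reads were called. None was called against del9, where 1.96% of such genes were. With del9 against EV, 3 were higher and 4 lower, where 21.7% of such genes were called. These counts are near the shares for genes of such abundance. The smallest adjusted p belonged to *Ppp1ca*, a catalytic subunit of protein phosphatase 1 that dephosphorylates type I receptors, at 0.0935 with *gdf6Y* and 0.13 with del9 on the log2 scale (edgeR adjusted p = 0.00831 and 1.43e-05). *Ppp1ca* has 2552 exonic bases and is in the shortest decile, whose medians were 0.059 and 0.067 and whose upper quartiles were 0.0940 and 0.118. It was thus within the quartiles of its decile with *gdf6Y* and above them with del9. The part of length in this result was not tested. None of the 10 further co-receptors, 8 of them tested, was called in any comparison, and the smallest adjusted p with *gdf6Y* against EV belonged to the pseudoreceptor *Bambi* (edgeR adjusted p = 0.147). Of 31 ligands, 19 were tested in each comparison. The activin subunits *Inhbb* and *Inhba* were lower with *gdf6Y* against EV (-0.10 and -0.095, edgeR adjusted p = 0.0121 and 0.0237), none was called against del9, and with del9 against EV 1, *Bmp5*, was lower. In the same order of comparisons, 3.38%, 0.41% and 4.43% of all genes tested were called lower. *Inhbb*, *Inhba* and *Bmp5* are among the genes averaging 100 or more reads, of which 12.9%, 1.96% and 21.7% were called in either direction.

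Marker genes of Sertoli and other cell types were counted beside the receptors. Of 8 tested Sertoli cell markers 1 was called with *gdf6Y* against EV, *Gata4* (-0.20, edgeR adjusted p = 9.98e-05). In that comparison 5.08% of all genes tested and 12.9% of genes averaging 100 or more reads were called. The summed level of the list was 53.3 to 56.1 TPM with EV, 47.4 to 50.4 with *gdf6Y* and 47.9 to 53.1 with del9. Both plasmid groups lay below EV, del9 only just (highest 53.14 against a lowest EV value of 53.29). *Gata4* alone made up 29.1 to 29.6 TPM of this sum with EV, 24.2 to 26.4 with *gdf6Y* and 25.9 to 28.2 with del9. *Kitl*, the next most abundant marker, overlapped between the groups and was not called in any comparison. *Gata4* passed neither against del9 nor between the controls. Of 7 tested mesenchymal markers 1 was lower with *gdf6Y* against EV, *Pdgfra* (-0.13, edgeR adjusted p = 0.00109), and 2 with del9 against EV, *Pdgfra* (-0.13) and *Pdgfrb* (-0.25). Of all genes tested, 3.38% and 4.43% were called lower in these comparisons. Among genes averaging 100 or more reads, 12.9% and 21.7% were called. The summed mesenchymal level was 2972 to 3146 with EV, 2775 to 3158 with *gdf6Y* and 2741 to 2989 with del9, and *Thy1* was at 0. *Fst*, in the granulosa list, was higher with del9 against EV (0.44, edgeR adjusted p = 2.13e-18) and lower with *gdf6Y* against del9 (-0.29, edgeR adjusted p = 2.26e-06), whereas *Foxl2* was at 0. No Leydig, endothelial or macrophage marker was called. The part of these markers in the falls of *Tgfbr2*, *Bmpr2* and *Tgfbr3* was not tested, and fewer cells of a kind cannot be told apart from less RNA per cell in such samples.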

How the data were processed

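Poly(A) RNA of 16 TM4 samples was sequenced from strand-specific libraries with molecular identifiers. The authors aligned reads with STAR 2.7.10a to GRCm39, removed duplicates with UMI-tools and counted unique reads per gene on the sense strand with featureCounts 2.0.3. The authors deposited these counts as raw whole numbers. Multi-mapping and multi-overlapping reads were discarded before deposit, which lowers counts of genes with shared stretches. The replicate 6 libraries of *gdf6Y* and del9 were not analysed here.

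Groups came from the labels. The 10 receptors and all gene lists were chosen with earlier results of these data known. Genes counted at least 1 time in the samples compared were tested with edgeR 4.0.16 in R 4.3.3 (TMM, quasi-likelihood test, 2 groups per model, no covariates, Benjamini-Hochberg over all genes, threshold 0.05). Normalized counts are reads scaled by TMM to the mean effective library size of 24649079. Levels per length used exonic lengths of a GENCODE GRCm39 annotation, matched for 56017 of 56748 genes. All receptors were named, further genes were named where called in both *gdf6Y* comparisons or with the smallest adjusted p of their list, and the 3 genes with the highest r were named for each called receptor. Alternatives were DESeq2 1.42.0, its size factors, stricter filters, all groups in one model, a replicate block, a length correction, replicates left out, and, chosen after seeing the data, edgeR 4's dispersion estimate and the joint omission of *gdf6Y* replicate 1 and del9 replicate 2. 1 list of genes is not reported here. The steps were tested on simulated data.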

Additional observations from a re-analysis of the deposited data

Results flagged for a closer look

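*Tgfbr2* changed differently with *gdf6Y* and with del9: set against the same EV samples its log2 fold change was -0.13 with *gdf6Y* and 0.012 with del9, and the test of the difference gave -0.14 (edgeR adjusted p = 0.00159), with all 5 *gdf6Y* samples below all 5 del9 samples.

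In 33 groups of values, made of 10 receptors and the total count in 3 groups each, 2 had a sample far from the others, against 1.65 that chance would give at 1 in 20. Both were del9 replicate 3. Its normalized count of *Acvr2b* was 77.0 against 88.2 to 92.1 in the other del9 samples (gap over range 0.743), and its total count was 24608410 against 25650188 to 26071045 (gap over range 0.712). No result on *Acvr2b* passed the test with this sample, and none did without it.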

How the results depend on the processing

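*Tgfbr2* in both comparisons with *gdf6Y*, *Bmpr2* in both comparisons with EV and *Tgfbr3* in del9 against EV kept their direction and their side of the threshold in all 21 fits. The number of receptors called in *gdf6Y* against EV was never more than 1.5 times away from 3. In *gdf6Y* against del9 it was 1 in the fit reported and 2 with the replicate block, with the block and length correction, and without *gdf6Y* replicate 5 (range with a replicate left out 1 to 2), the second being *Tgfbr3*. *Bmpr1a* was called in del9 against EV also with the block (adjusted p = 0.018) and with block and length correction (0.0105). Over all genes, *gdf6Y* against EV gave 1338 calls, 2061 with the block, and 794 to 1751 with a replicate left out, the lowest without *gdf6Y* replicate 5. Against del9, 261 calls became 82 with DESeq2, 45 with filterByExpr, 44 with at least 10 counts in every sample, 163 with edgeR 4's dispersion estimate, 661 with the block, 639 with block and length correction, and 160 to 441 with a replicate left out, the lowest without del9 replicate 2 and the highest without del9 replicate 1. The cause of these differences was not tested.

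The replicate numbers were not taken to pair the samples: deviations of same-numbered samples correlated by 0.0040 to 0.20 in *gdf6Y* and EV, 0.099 to 0.16 in *gdf6Y* and del9 and -0.028 to 0.16 in del9 and EV, not all over 0.1, and 3, 4 and 1 of 5 samples correlated best with their own number.

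Receptors near 0 changed sign. With a replicate left out the log2 fold changes of *gdf6Y* against EV were -0.030 to 0.0027 for *Tgfbr1* and -0.015 to 0.051 for *Acvr2b*. Those against del9 were -0.0012 to 0.030 for *Acvr1*, -0.022 to 0.039 for *Acvr1b*, -0.020 to 0.025 for *Tgfbr1*, -0.00029 to 0.055 for *Acvr2a* and -0.060 to 0.027 for *Eng*, with -0.00033 for *Acvr1b* when *gdf6Y* replicate 1 and del9 replicate 2 were left out together. In del9 against EV they were -0.032 to 0.0079 for *Tgfbr1*, and *Acvr1* was at -0.00035 with block and length correction. With the longest transcript, levels with EV were 105 for *Tgfbr2*, 94.9 for *Tgfbr3*, 65.4 for *Bmpr1a*, 20.6 for *Acvr1*, 15.9 for *Acvr1b*, 15.02 for *Tgfbr1*, 7.17 for *Acvr2a*, 1.99 for *Eng* and 1.23 for *Acvr2b* TPM. Depth limits *Acvr2b* and *Eng*, with fewer than 100 normalized counts per group mean.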
